A study of Mustela putorius furo with 8 samples.

Results

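Mucins are the heavily O-glycosylated proteins of epithelial surfaces, and the genes described here were chosen by their symbols: the gel-forming mucins MUC5AC and MUC5B and the membrane mucins MUC1, MUC4, MUC13, MUC16, MUC17 and MUC20. Of these 8 genes, 7 were found among the 27912 genes of the count matrices, and MUC20 was not analysed here. Gel-forming mucins are secreted and link end to end into the polymers of mucus, and MUC5AC is best known from the surface of the stomach and airway, MUC5B from submucosal glands and small airways. Membrane mucins stay anchored in the apical membrane, where their extracellular domains form the glycocalyx and some of them meet growth factor receptors. The healthy pancreatic duct is known for MUC1 at its apical surface, and thick mucus that blocks the ducts is a feature of cystic fibrosis.

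The cells were primary pancreatic ductal epithelial (PDE) cells of newborn ferrets, taken at 1 to 3 days of age, passaged 10 times and grown on transwell inserts, where the air-liquid interface polarizes them. There were 2 genotypes, WT and CFTR KO/KO (CF below), each harvested at day 2, 5, 7 and 9 of the interface, with the same media and with no other allele or agent in the labels. The days are those of the sample titles, and the labels' general culture protocol gives a longer time at the interface. Each of the 8 droplet libraries was 1 pool of cells: the study mixed cells of 3 donors of a genotype, which differed widely in PDX1 between the genotypes, so a genotype difference here is a difference between 2 pools. No value has a replicate error, the days are not replicates, and no test between genotypes was possible.

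The libraries held 32945 retained cells, 4634 to 6224 in WT and 1607 to 4499 in CF, with 34735952 to 114585136 UMIs (unique molecular identifiers, 1 per captured transcript) per library. Between 1 and 14 cell barcodes were shared by a pair of libraries, 148 barcodes in all. In the CF library of day 7, 411 of 1607 cells had under 3000 UMIs. Epithelial markers summed to at least 5987 CPM (UMIs per 1e+06 UMIs of a library) in every library and duct markers to 1157 to 2798 CPM in WT and 2145 to 3622 CPM in CF. Airway and squamous markers, of which 7 of 8 were in the matrices, went from 1369 CPM at day 2 to 548 CPM at day 9 in WT and from 1019.8 to 437 CPM in CF. The 4 immune markers (PTPRC, CD68, CD3E and LYZ) summed to 4.32 CPM in WT and 21.8 CPM in CF at day 2 and to 13.2 and 7.78 CPM at day 9. CD3E had 0 UMIs in each genotype at day 2, and PTPRC had 0 in each at day 9. In every library PTPRC, CD3E or both had 0 UMIs, so these sums do not by themselves show immune cells. The median percent of mitochondrial UMIs per cell was 9.17, 6.63, 10.7 and 10.3 in WT and 7.04, 6.76, 5.71 and 5.65 in CF at day 2, 5, 7 and 9. It was lower in CF at day 2, 7 and 9, the gap being widest at day 7 and 9. The part of these markers and of the mitochondrial share in the mucin differences was not tested. Acinar enzymes, of which 3 of 7 were in the matrices, summed to at most 0.118 CPM, with CPB1 at 0 UMIs in every library, and the endocrine markers to at most 0.112 CPM, with INS and GCG at 0. The 6 fibroblast markers summed to 0.00873 to 0.721 CPM in WT, and to 7.72, 0.140, 28.1 and 19.4 CPM in CF at day 2, 5, 7 and 9. They reached 10 CPM in 4 of the 30 CF clusters (3, 11, 23 and 27, 1462 cells, 16.2 to 229 CPM) and in 0 of the 41 WT clusters. CFTR was lower in CF than in WT at each day, with 2.50 against 6.57, 8.69 against 16.9, 11.1 against 15.9 and 11.4 against 29.5 CPM, from 256 to 621 CF UMIs. The study's methods describe the knockout as free of CFTR transcript and protein, so the CFTR UMIs of the CF libraries go against that description. The part of the gene that was altered is not given in the sources used here. CF therefore stands throughout for the libraries labelled CFTR KO/KO, and every direction given for CF rests on that label. SOX2, a transcription factor of airway and foregut epithelium, had at most 3 UMIs in a CF library and 68.5 to 115 CPM in WT, where it split the clusters into 2 sets that are used below.

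On the ferret assembly ASM1176430v1.1 the 7 mucins are protein-coding genes that overlap no neighbour in the annotation table, which names no chromosomes. The gel-forming genes lie next to each other, MUC5B at 16217059 to 16245582 and MUC5AC at 16260012 to 16291082, with 14430 bases between them. Of the membrane mucins, MUC4 lies at 96587559 to 96611913 and MUC13 at 97743910 to 97774701, MUC1 at 5302524 to 5308956, MUC16 at 35060040 to 35171307 and MUC17 at 7864215 to 7885517. The values that follow count UMIs near the 3′ end over all exons, so they are not levels per length, and different mucins are set against each other only as shares or ratios of UMIs.

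MUC5AC, the gel-forming mucin of the stomach surface, was close to 0 in WT cultures at day 2 and was counted in CF cultures at every day. Its WT level was 0.262, 12.6, 22.7 and 126 CPM at day 2, 5, 7 and 9, which came from 30, 1279, 1882 and 10712 UMIs. The 30 UMIs of WT day 2 lay in 14 cells, with 15 of them in 1 cell. In CF it was 31.4, 74.2, 47.0 and 45.9 CPM, from 3212, 5304, 1632 and 2296 UMIs. The CF library was thus the higher one at day 2, 5 and 7, and the WT library at day 9. The ratio of CF to WT was 119.9 at day 2 (95% counting interval 83.8 to 178), 5.87 at day 5, 2.07 at day 7 (1.94 to 2.21) and 0.363 at day 9. A difference is called here when it reached 2-fold on log2(CPM + 1) and the counting interval of the ratio left out 1. By that rule MUC5AC was called higher in CF at day 2, 5 and 7, with log2 differences of 4.68, 2.46 and 1.02, and lower at day 9, with -1.44. The call at day 7 was lost with either of the other scalings tried, for which the log2 difference was 0.82 (TMM) and 0.86 (DESeq2 size factors), with a pseudocount of 5 (0.91), with all deposited barcodes (0.57), with the mean over cells (0.69) and with the clusters that kept their class name (0.55). The call at day 9 was lost without the 4 CF clusters of fibroblast markers, with -0.86. Leaving out these clusters, here and below, was chosen after seeing the data and removes cells from CF alone.

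MUC5B, the gel-forming mucin of glands, rose in WT and was the lower in CF at the later days. WT levels were 0.166, 12.4, 35.3 and 56.4 CPM at day 2, 5, 7 and 9, and CF levels were 0.928, 11.5, 8.18 and 7.40 CPM. Day 2 rested on 19 WT and 95 CF UMIs, a ratio of 5.60 (3.40 to 9.71) between levels that were below the filter of 1 CPM on average. At day 5 the libraries were close, with a ratio of 0.927 (0.848 to 1.01). At day 7 and 9 MUC5B was called lower in CF, by log2 differences of -1.98 and -2.77. With all WT cells the neighbouring gel-forming genes differed in direction at day 7. MUC5AC was called higher there, a call that was lost in several settings given above, and MUC5B lower.

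MUC1, the membrane mucin of duct surfaces, was the most counted of the 7 mucins in every library. It had 421, 651, 724 and 1206 CPM in WT and 843, 694, 502 and 412 CPM in CF at day 2, 5, 7 and 9. The WT levels rose with each sampled day while the CF levels were lower at each later day. The CF to WT ratio was 2.00 at day 2, where the log2 difference of 1.00 was just under the limit and was not called, and 0.342 at day 9, a log2 difference of -1.55 that was called and that was -0.96 without the 4 CF clusters of fibroblast markers. MUC16, the very large membrane mucin that carries the CA125 epitope, had 81.9, 148, 145 and 334 CPM in WT and 110.3, 123.8, 113.3 and 144.7 CPM in CF. The CF to WT ratio of MUC16 was 1.35, 0.838 and 0.784 at day 2, 5 and 7, none called. At day 9 it was 0.433 and called lower in CF, though without those 4 clusters the log2 difference was -0.65.

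MUC4, a membrane mucin that binds the receptor ERBB2, and MUC13, a membrane mucin of the intestine, were the members furthest below WT in the CF library of day 9. MUC4 was 21.4, 52.7, 77.8 and 103.5 CPM in WT and 42.0, 28.8, 16.6 and 9.80 CPM in CF. The log2 differences of MUC4 were 0.94 and -0.85 at day 2 and 5, which were not called, and -2.17 and -3.27 at day 7 and 9, which were. MUC13 was 15.7, 77.3, 112 and 159.9 CPM in WT and 4.72, 9.68, 12.0 and 15.8 CPM in CF, so that the highest CF library was level with the lowest WT library. It was the only member called lower in CF at each of the 4 days, with log2 differences of -1.54, -2.87, -3.12 and -3.26, in a background where 1.67% of genes were called lower at all 4 days and 1.28% higher.

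MUC17, a membrane mucin of the intestinal brush border, was the least counted of the 7 in every library and was higher in CF. WT libraries gave 0, 9, 30 and 72 UMIs of it at day 2, 5, 7 and 9, or 0, 0.0889, 0.362 and 0.849 CPM, where 3 counts at day 2 would have given 0.0262 CPM. The 9 UMIs of WT day 5 lay in 5 cells, with 5 of them in 1 cell. CF libraries gave 50, 171, 110 and 269 UMIs, or 0.489, 2.39, 3.17 and 5.38 CPM. Every CF library from day 5 on was above every WT library. At day 2 CF was 18.7-fold above the floor of 3 counts in the WT library, at levels below the filter. The counting interval of that ratio began at 14.6. At day 5, 7 and 9 the ratio was 26.9 (13.8 to 59.8), 8.76 and 6.33 (4.87 to 8.33), and MUC17 was called higher in CF at these 3 days, on a log2(CPM + 1) scale that understates the change of so low a gene. With a pseudocount of 5 the log2 differences were 0.54, 0.61 and 0.83, and none of the 3 was called.

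**Figure D1:**
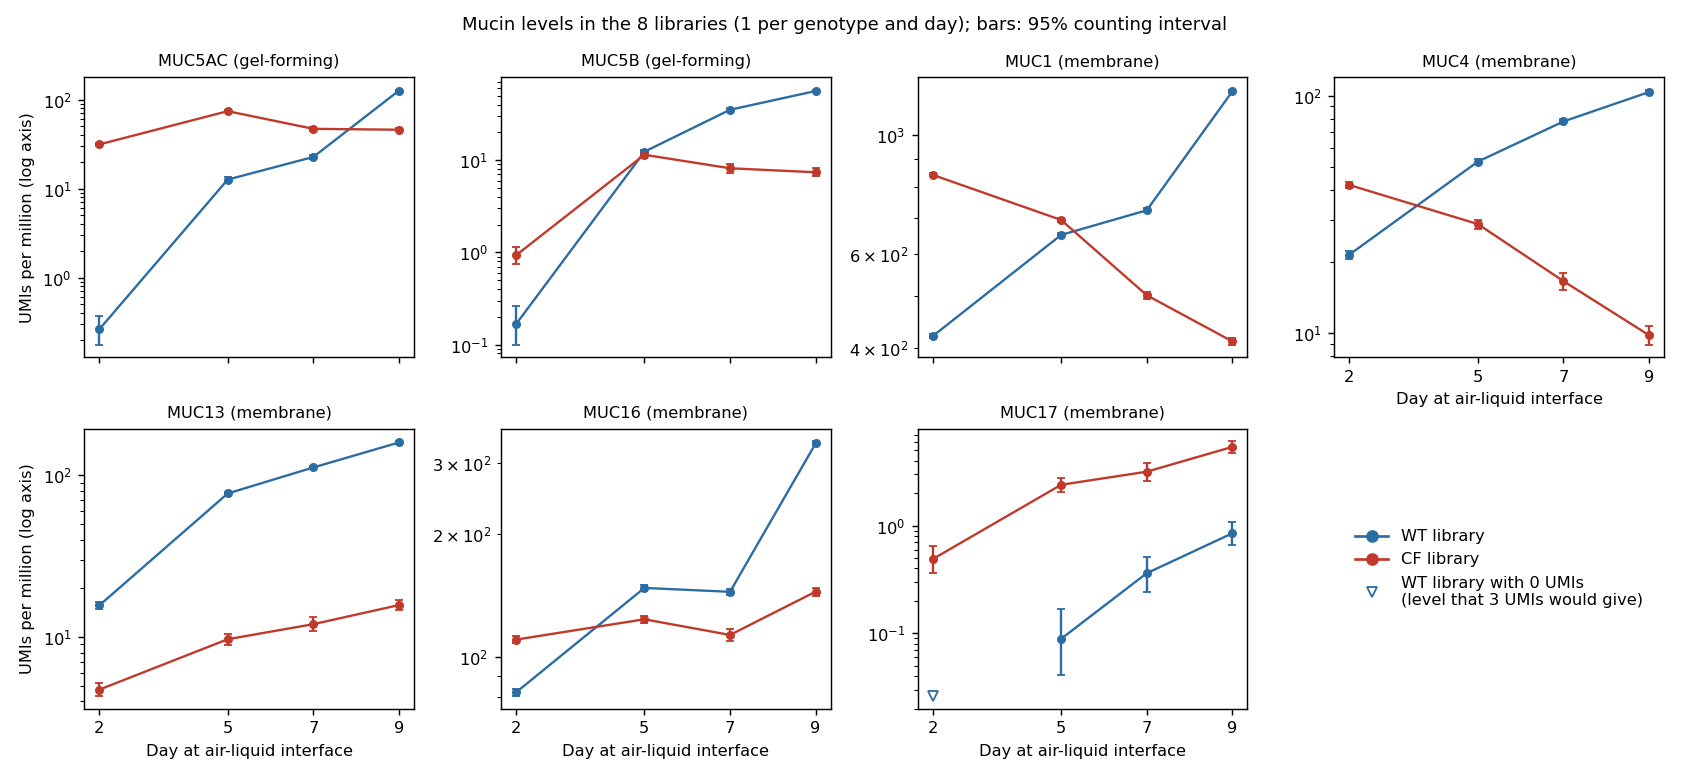
Level of each of the 7 mucins in CPM (log axis) against the day at the air-liquid interface (2, 5, 7 and 9), 1 point per library for WT and for CF, with 95% counting intervals and an open triangle at the level of 3 UMIs where a library had none. The MUC5AC lines cross between day 7 and day 9, MUC13 in CF (4.72 to 15.8 CPM) stays under WT at each day, and MUC17 in CF (0.489 to 5.38 CPM) stays above it.

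With all cells of both genotypes, and set against all genes, the counts of called mucins were largest at day 9. At day 2, of 5 mucins past the filter of a mean of 1 CPM, 1 was called higher in CF (MUC5AC) and 1 lower (MUC13), beside 4.6% and 4.96% of genes. At day 5, 2 of 7 were called higher (MUC5AC and MUC17) and 1 lower (MUC13), beside 2.73% and 5.14%. At day 7, 2 of 7 were called higher (MUC5AC and MUC17) and 3 lower (MUC5B, MUC4 and MUC13), beside 5.64% and 3.64%. At day 9, 1 of 7 was called higher (MUC17) and 6 lower, beside 4.07% and 4.21%. Without the 4 CF clusters of fibroblast markers 3 were called lower at day 9 (MUC5B, MUC4 and MUC13), and MUC17 was still called higher. That setting takes cells from CF alone, and the share of all genes called under it was not computed. The median log2 difference over the mucins was 0.94, -0.10, -0.53 and -1.55 at day 2, 5, 7 and 9, and over all genes tested it was -0.02, -0.05, 0.13 and 0.08. MUC5AC was the 1 member called higher at day 2 and lower at day 9, as were 0.109% of genes.

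**Figure D2:**
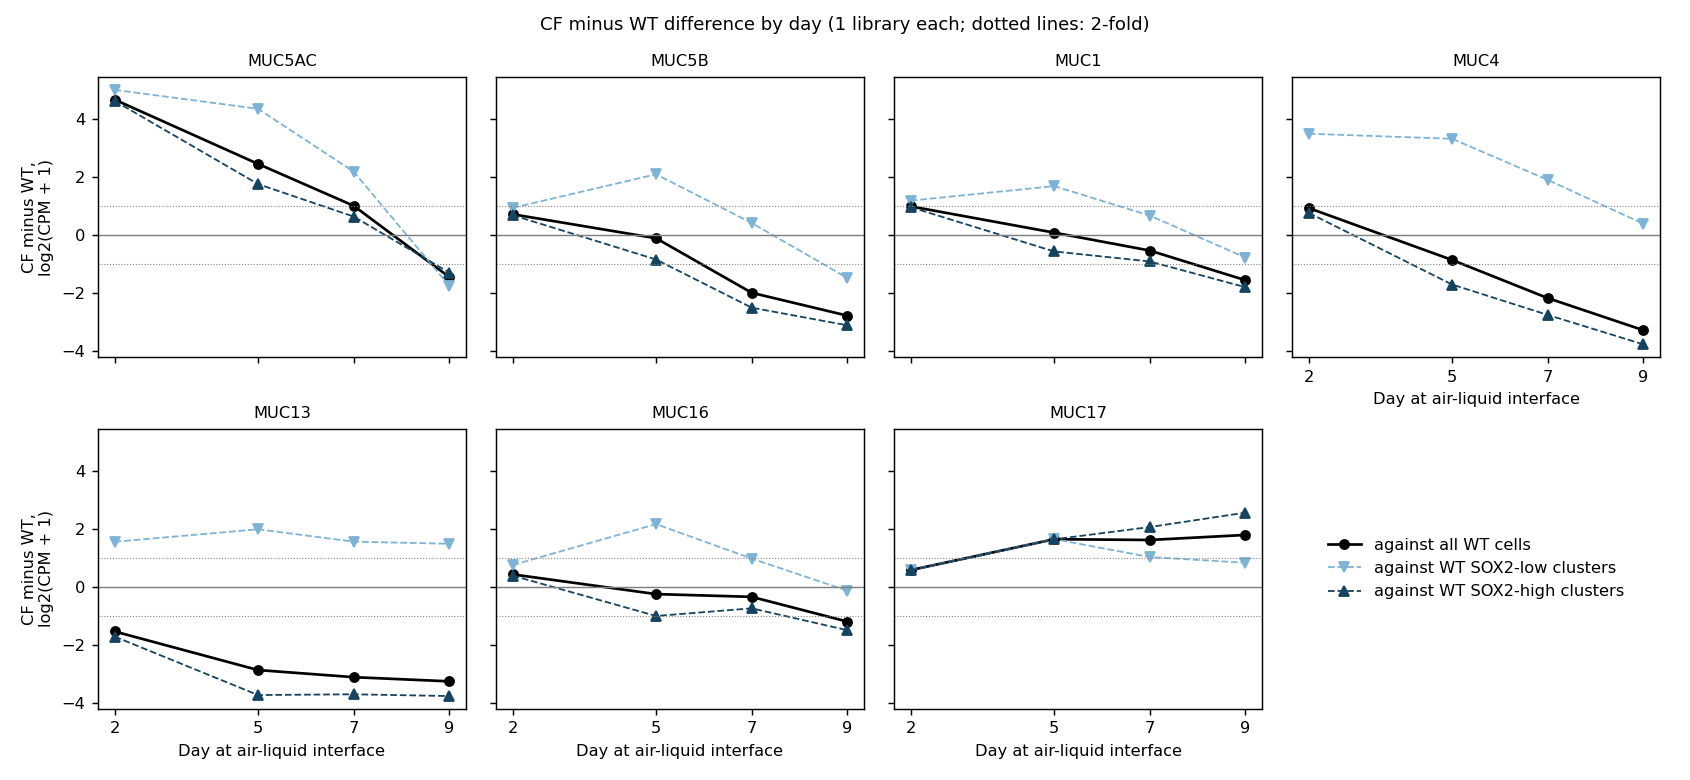
Log2 difference of CF minus WT, computed on CPM plus 1, for each mucin at day 2, 5, 7 and 9, against all WT cells and against the WT clusters with low or high SOX2. Against all WT cells MUC13 is below 0 at each day and MUC5AC falls from 4.68 at day 2 to -1.44 at day 9, while against the SOX2-low WT clusters MUC13 lies above 0 at each day.

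Between day 2 and day 9 the 6 mucins past the filter all rose in WT, and in CF some rose and some fell. The WT ratios of day 9 to day 2 were 483 for MUC5AC, 340 for MUC5B, 10.2 for MUC13, 4.83 for MUC4, 4.08 for MUC16 and 2.86 for MUC1. MUC17 in WT at day 9 was 32.4-fold above the floor of day 2 (counting interval from 25.7 up), still below the filter. In WT 6 of 6 were called higher and 0 lower, beside 9.54% and 6.29% of genes. In CF 3 of 7 rose, MUC5B with a ratio of 7.97, MUC13 with 3.34 and MUC17 with 11.0, and 2 fell, MUC1 with 0.489 and MUC4 with 0.233, beside 7.69% and 3.27% of genes. MUC5AC and MUC16 were not called in CF, where their ratios were 1.46 and 1.31. Without the 4 CF clusters of fibroblast markers MUC5AC was called higher at day 9 than at day 2, with a log2 change of 1.11, and MUC1 was not called, with -0.45. The median log2 change of the mucins was 2.75 in WT, against 0.11 over all genes, and 0.53 in CF, against 0.16. These comparisons over time use the same libraries as the comparisons of genotypes.

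The steps between days differed from mucin to mucin. By day 5, 4 of 6 mucins had risen in WT (MUC5AC, MUC5B, MUC4 and MUC13), beside 5.5% of genes, and 0 had fallen, beside 1.62%. In CF 3 of 7 had risen by then (MUC5AC, MUC5B and MUC17), beside 2% of genes, and 0 had fallen, beside 0.561%. MUC16 in WT had a log2 step of -0.03 between day 5 and day 7 and rose by 1.20 between day 7 and day 9. MUC5AC in WT rose by 2.43 on the log2 scale over that last step. In CF MUC5AC rose by 1.21 between day 2 and day 5 and was at -0.65 over the next step.

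The WT clusters fell into those with at least 50.6 CPM of SOX2 (29 clusters, SOX2-high) and those with at most 4.87 CPM (12 clusters, SOX2-low), and the CF clusters had at most 1.08 CPM. The SOX2-low set held 892, 1801, 1276 and 1510 WT cells at day 2, 5, 7 and 9. The sign of the genotype difference of several mucins depended on which set CF was compared with. MUC13 was 0.953, 1.70, 3.42 and 5.00 CPM in the SOX2-low set and 17.8, 141, 169 and 228 CPM in the SOX2-high set, so the CF levels lay between the sets at each day. Against the SOX2-low set MUC13 was called higher in CF at each day, with log2 differences of 1.55, 1.98, 1.56 and 1.48, and against the SOX2-high set it was lower, with -1.72, -3.74, -3.71 and -3.77.

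MUC4 in CF likewise lay between the sets at day 5, 7 and 9, with 2.79, 1.96, 3.67 and 7.20 CPM in the SOX2-low set and 24.1, 95.7, 117 and 146 CPM in the SOX2-high set. CF minus SOX2-low was 3.50, 3.33, 1.91 and 0.40 for MUC4, and at day 9 it was no longer called. MUC5B at day 7 turned from -1.98 against all WT cells to 0.42 against the SOX2-low set. At day 9 MUC5B stayed called lower in CF against either set, with log2 differences of -1.47 against SOX2-low and -3.11 against SOX2-high. MUC5AC had 0 UMIs in the SOX2-low set at day 2, where its CF level was 154-fold above the floor (counting interval from 124.9 up). It was called higher in CF at day 5 and 7 with log2 differences of 4.36 and 2.20, and lower at day 9 with -1.74. At day 9 WT cluster 17 alone held 3411 of the 4027 MUC5AC UMIs and 457 of the 575 MUC5B UMIs of the SOX2-low set. Against the SOX2-high set the MUC5AC difference at day 7 was 0.65 and not called.

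MUC1 had 367, 213, 313 and 702 CPM in the SOX2-low set at day 2, 5, 7 and 9, so its rise from day 2 to day 9 was under 2-fold there. At day 2 WT cluster 33 held 3043 of the set's 5395 MUC1 UMIs. At day 9 WT cluster 17 held 12454 of 18121, so the levels of these days come mainly from different clusters. MUC1 was called higher in CF than in the SOX2-low set at day 2 and 5, with 1.20 and 1.70, and was 0.68 and -0.77 at day 7 and 9, neither called. MUC16 was called higher at day 5, with 2.16, and was 0.75, 0.97 and -0.14 at day 2, 7 and 9. The calls of MUC1 and MUC16 at day 9 were thus lost against this set, and against the SOX2-high set both were called lower there, with -1.79 and -1.50.

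MUC17 in WT lay mainly in the SOX2-low set at day 7 and 9, with 30 of 30 and 67 of 72 UMIs. There it had 0, 0.0862, 1.05 and 2.60 CPM at day 2, 5, 7 and 9 against 0, 0.0913, 0 and 0.0848 CPM in the SOX2-high set. Against SOX2-low cells its log2 difference at day 9 was 0.83, under the limit for a call. Counted over the members, 4 of 5, 7 of 7, 4 of 7 and 1 of 7 were called higher in CF than in the SOX2-low set at day 2, 5, 7 and 9, beside 2.66%, 4.74%, 7.2% and 3.31% of genes. Called lower were 0, 0, 0 and 2 of them, beside 2.14%, 3.7%, 2.86% and 1.98%. Against the SOX2-high set 1, 2, 1 and 1 were called higher, beside 5.82%, 6.12%, 7.55% and 7.15%, and 1, 3, 3 and 6 lower, beside 5.72%, 7.63%, 4.47% and 5.59%.

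The balance of gel-forming and membrane mucins is given as the share of MUC5AC and MUC5B in the UMIs of the 7 mucins of a library, which does not depend on scaling between libraries. MUC2, another gel-forming mucin, is not a member and is left out of this share. At day 2 it had 67 UMIs in WT and 150 in CF, where MUC5AC and MUC5B together had 49 and 3307. In WT this share was 0.0791% (0.0585 to 0.104), 2.62%, 5.19% and 9.19% at day 2, 5, 7 and 9. In CF it was 3.13%, 9.07%, 7.85% and 8.32%. The WT share was higher at each later day, and the CF share was above it until day 7 and below it at day 9 (9.06 to 9.33 in WT, 8.02 to 8.62 in CF, counting error only). Within WT, the SOX2-low set went from 0 of 6409 mucin UMIs at day 2 (counting interval up to 0.0575%) to 16.9% at day 9. Most of its gel-forming UMIs of day 9 were in WT cluster 17, with 406 of its 1510 cells. That cluster held 3411 of 4027 MUC5AC UMIs and 457 of 575 MUC5B UMIs, so the 16.9% does not describe the set's clusters in general. The SOX2-high set went from 0.0882% to 7.71%.

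As sums, the gel-forming pair had 0.428, 25.0, 57.9 and 183 CPM in WT and 32.3, 85.7, 55.2 and 53.3 CPM in CF. At day 7 the sums of the genotypes were nearly equal, with a CF to WT ratio of 0.952 (0.902 to 1.00), though MUC5AC and MUC5B each differed. The membrane mucins summed to 540, 929, 1058 and 1805 CPM in WT and to 1000.2, 859, 647 and 588 CPM in CF. All 7 mucins together took 0.0541%, 0.0954%, 0.112% and 0.199% of WT UMIs and 0.103%, 0.0944%, 0.0703% and 0.0641% of CF UMIs.

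Ratios between mucins moved with genotype as well. There were 1.58, 1.02, 0.643 and 2.24 MUC5AC UMIs per MUC5B UMI in WT and 33.8, 6.48, 5.75 and 6.20 in CF at day 2, 5, 7 and 9. In the SOX2-low WT set this ratio reached 7.00 at day 9, and in the SOX2-high set it was 1.59. There were 0.732, 1.47, 1.44 and 1.55 MUC13 UMIs per MUC4 UMI in WT and 0.112, 0.336, 0.725 and 1.61 in CF. With all WT cells the genotypes thus differed at day 2 and were close at day 9. At day 9 there were 0.694 MUC13 UMIs per MUC4 UMI in the SOX2-low WT set and 1.56 in the SOX2-high set. MUC1 took 77.9%, 68.2%, 64.8% and 60.7% of the mucin UMIs in WT and 81.6%, 73.5%, 71.5% and 64.3% in CF.

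**Figure D3:**
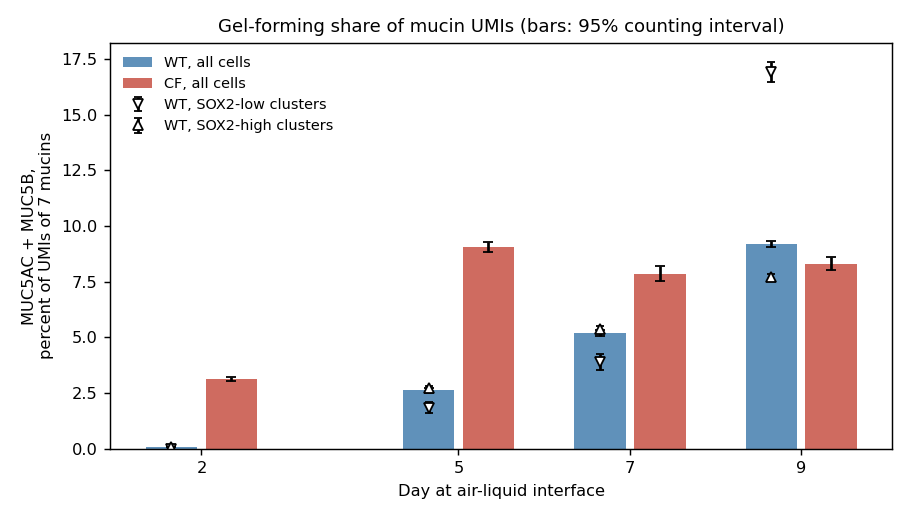
UMIs of MUC5AC and MUC5B as a percent of the UMIs of the 7 mucins at day 2, 5, 7 and 9, as bars for WT and CF and as triangles for the SOX2-low and SOX2-high WT clusters, with 95% counting intervals. WT climbs from 0.0791% to 9.19% while CF is at 9.07% by day 5 and at 8.32% on day 9.

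The clusters and class names are those the study deposited. It named mucins among the markers of its centroacinar progenitor class and made the clusters from principal components of variable genes, which can include mucins, so levels by class or cluster are given as a description. Among the clusters of at least 50 cells (39 in WT and 29 in CF), MUC1, MUC4, MUC13 and MUC16 had their highest WT level in 1 and the same cluster, and MUC5AC, MUC5B and MUC17 in others. WT cluster 16, called centroacinar, had 3066 CPM of MUC1, 426 of MUC4, 616 of MUC13 and 998 of MUC16, and no UMI of MUC17. WT cluster 18, called centroacinar progenitor and led by genes of mucous cells such as CLCA1, TFF3 and SPDEF, had 384 CPM of MUC5B, the highest, and 259 CPM of MUC5AC.

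MUC5AC was highest in WT cluster 17, with 368 CPM, a SOX2-low cluster of 603 cells called ductal and led by TFF2, TFF1, BPIFB1 and LTF, which are secreted by mucosal surfaces. This cluster had 8.26 CPM of MUC17, the highest of WT, with 1744 CPM of MUC1 and 393 of MUC16 but 13.5 of MUC4 and 7.66 of MUC13. It held 31.8% of the MUC5AC UMIs and 73.6% of the MUC17 UMIs of WT day 9. WT cluster 18 held 51.0% of the MUC5AC and 63.4% of the MUC5B UMIs of WT day 7. The lowest WT levels were 35.9 CPM of MUC1 in cluster 2, 6.85 of MUC16 in cluster 0, and 0.352 of MUC4 and 0.704 of MUC13 in cluster 4.

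In CF, cluster 17 (349 cells, called centroacinar progenitor) had the highest MUC5AC with 314 CPM, MUC13 with 51.0 and MUC16 with 330, and its leading genes included LTF and OLFM4. CF cluster 4, of which 97.9% of cells were from day 2, had the highest MUC1 with 2029 CPM and MUC4 with 119, and held 43.3% of the MUC5AC UMIs of CF day 2. MUC5B was highest in CF cluster 25 with 40.7 CPM, and MUC17 in CF cluster 7 with 14.0 CPM. CF cluster 7 was called centroacinar, was led by genes such as WFDC2, TFF1 and TFF2, and held 68.2% of the MUC5AC and 75.8% of the MUC17 UMIs of CF day 9. The lowest CF level of MUC1 (11.2 CPM) was in cluster 3, led by SPP1, SPARC and VCAN. Those of MUC5AC (0.591 CPM) and MUC16 (5.52 CPM) were in cluster 11, led by ACTA2, COL1A1 and FN1. MUC4 was at 0 UMIs in CF clusters 3 and 14, and MUC13 in CF clusters 2, 20 and 28.

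Over the clusters, MUC13 reached 10 CPM in 14 of 27 SOX2-high WT clusters, in 0 of 12 SOX2-low WT clusters and in 8 of 29 CF clusters. MUC4 did so in 14, 2 and 13 of them. MUC17 was at 0 UMIs in 26 of 27 SOX2-high and 8 of 12 SOX2-low clusters in WT, and in 9 of 29 CF clusters. The highest CF cluster of MUC13 (51.0 CPM) was above the highest SOX2-low cluster and far under the 616 CPM of WT cluster 16.

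**Figure D4:**
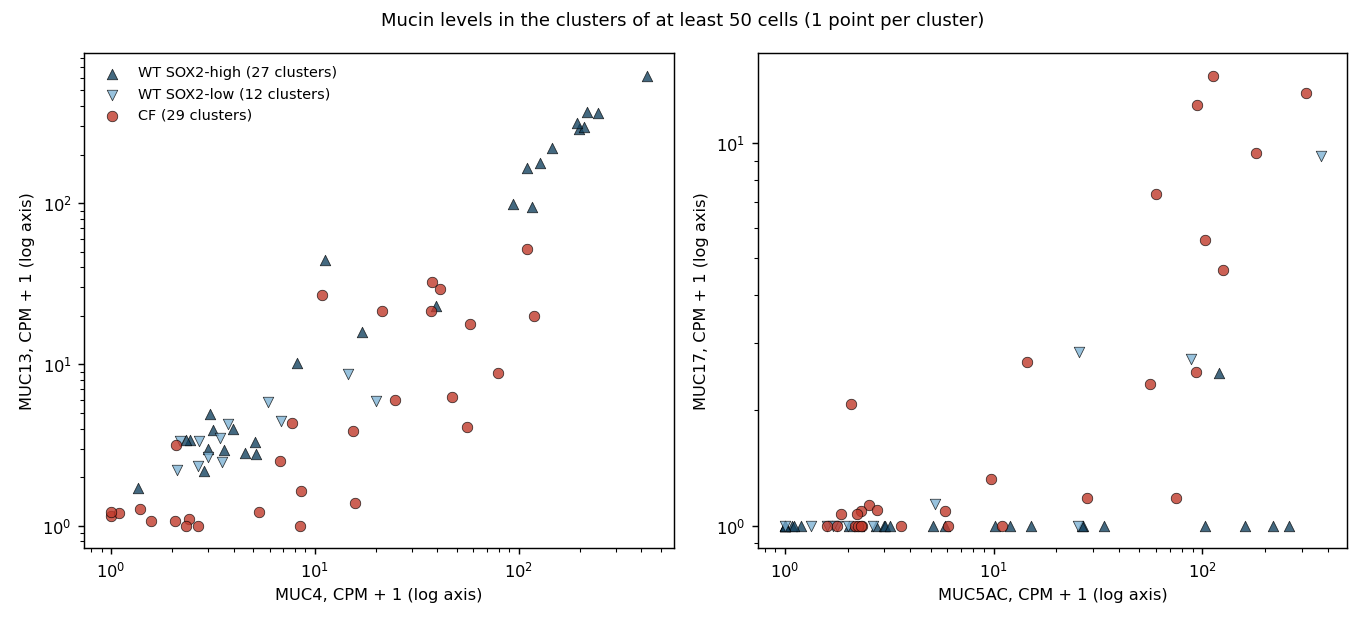
MUC13 against MUC4 (left) and MUC17 against MUC5AC (right), each as CPM plus 1 on log axes, with 1 point per cluster of at least 50 cells for 27 SOX2-high WT, 12 SOX2-low WT and 29 CF clusters. MUC13 stays under 10 CPM in the SOX2-low clusters and reaches 616 CPM in a SOX2-high one, and MUC17 is at 0 in 26 of the SOX2-high clusters, also where MUC5AC is above 100 CPM.

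Within the centroacinar progenitor class, several genotype differences had the sign they had over whole libraries. The clusters used were those that a rule on markers other than mucins did not leave out. A cluster with no class marker among its leading genes could stay, so a kept name was not always borne out by markers. The CF class of day 2 was cluster 4 alone. MUC13 was lower in CF at each day, with log2 differences of -2.34, -2.82, -2.68 and -2.46, and MUC17 had 1.48, 6.87, 14.6 and 7.00 CPM in CF and 0, 0, 0 and 0.168 CPM in WT. MUC5B was at 0.59, -1.46, -2.25 and -3.61, but over all clusters with this class name it was -0.32 at day 5 and not called. MUC1 was not called at any day, with 0.26, -0.08, -0.07 and -0.62, the last a ratio with a counting interval of 0.632 to 0.673. The largest clusters of the class differed by day and genotype: at day 9 WT cells were mainly in clusters 21, 10 and 18 and CF cells in clusters 18, 17 and 4, numbered separately in each genotype.

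In the ductal class several membrane mucins were higher in CF. Its CF minus WT log2 difference was 1.61, 2.01, 1.50 and 0.38 for MUC1, 2.04, 2.52, 1.90 and 1.52 for MUC4, and 0.75, 2.26, 2.12 and 0.65 for MUC16. MUC1 at day 9 and MUC16 at day 2 and 9 were not called. MUC13, which was lower in CF over whole libraries, was -0.43, 0.41, 1.36 and 1.69 in this class, called higher in CF at day 7 and 9. CF kept 88 of 176 ductal cells at day 7 and 51 of 284 at day 9, mainly in clusters 12, 26 and 29, while WT had 2232 and 2001, mainly in clusters 14, 0 and 5 and in clusters 8, 17 and 2. At day 9 WT cluster 17 held 12454 of the 15012 MUC1 UMIs and 2876 of the 3520 MUC16 UMIs of the kept WT ductal clusters. Over all clusters with the ductal name MUC1 and MUC16 were called higher in CF at day 9, with 1.15 and 1.05. In the centroacinar class at day 9 the differences were -2.76 for MUC1, -5.24 for MUC4, -4.57 for MUC13 and -2.09 for MUC16, with WT cells mainly in clusters 3, 7 and 16 and CF cells in clusters 3, 7 and 11. CF clusters 3 and 11 are 2 of the 4 with fibroblast markers, and they hold the lowest CF levels of MUC1, MUC5AC and MUC16. MUC5AC in the centroacinar class had log2 differences of 1.12, -1.44 and -1.68 at day 5, 7 and 9, each called. At day 7 it was thus called lower in CF in this class, and higher over the whole library. In the centroacinar progenitor and ductal classes it was called higher at day 7, with 1.07 and 1.74.

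UMIs of the gel-forming mucins were gathered in a smaller share of cells than those of MUC1. The 1% of cells with the most MUC5AC UMIs held 59.4%, 46.3% and 26.3% of them in WT at day 5, 7 and 9, and 39.4%, 35.8%, 54.3% and 44.7% in CF at day 2, 5, 7 and 9. For MUC1 the 1% of cells with the most MUC1 UMIs held 4.29% to 11.1%. For MUC5B this share was 58.6%, 34.9% and 29.7% in WT and 57.5%, 65.1% and 56.2% in CF at day 5, 7 and 9. In CF at day 2 it was 95.8%, but only 49 cells had a MUC5B UMI and the top 1% was 45 cells. WT at day 2 is left out, since 14 cells had a MUC5AC UMI and 12 a MUC5B UMI, fewer than the 63 of the top 1%. A high share was also seen for membrane mucins of few UMIs. For MUC13 it was 36.2%, 20.2%, 24.9% and 23.6% in CF at day 2, 5, 7 and 9, but 6.52% to 23.0% in WT. MUC5AC had a UMI in 28.4% of WT cells at day 9 and in 20.4% of CF cells at day 5. After each cell was thinned to 3000 UMIs, 19.6%, 39.9% and 27.8% of WT cells with a MUC5AC UMI also had a MUC5B UMI at day 5, 7 and 9, against 1.87%, 4.73% and 5.68% of the other cells. In CF these shares were 1.75%, 11.7%, 13.2% and 11.3% at day 2, 5, 7 and 9, against 0.0699%, 1.01%, 0.700% and 0.750%, and the first of them rests on 3 of 171 cells. Of WT cells with MUC13, 34.1%, 42.3%, 51.5% and 49.0% also had MUC4 at day 2, 5, 7 and 9, against 4.06%, 6.93%, 9.49% and 13.7% of the other cells. Of CF cells with MUC13, 33.3%, 33.3%, 22.9% and 11.9% had MUC4, against 9.13%, 6.76%, 3.01% and 2.18%, with 8 such cells at day 7 and at day 9. The level of MUC4 fell in CF over the same days.

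The genes whose levels followed MUC5AC most closely over clusters are listed for each genotype. In WT they were MUC5B (Pearson r = 0.94 on log2(CPM + 1) over 39 clusters), FNDC3A (0.92), CD46 (0.91), UBE4A (0.91) and COPB1 (0.90), and in CF ATP6V1G3 (0.97), ENPP3, SLC28A3, LOC101684959 and ATP6V1A (0.95) over 29 clusters. MUC5B, the closest gene in WT, had r = 0.897 with MUC5AC in CF. For MUC16 they were DEGS2 (0.98), HOOK1, RAB11FIP1, CXCL17 and NEBL in WT and NEBL (0.98), LOC123392801, ATP13A2, INSR and RAB11FIP1 in CF, so NEBL and RAB11FIP1 were named in each genotype. Between members, MUC13 and MUC4 had r = 0.975 in WT and 0.808 in CF. Clusters share libraries and may have been formed with these genes, so these are descriptions with no p.

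Enzymes that build O-glycans on mucins were called in both directions at each day. Of 25 such genes 24 were in the matrices, and of the 19, 20, 21 and 20 past the filter at day 2, 5, 7 and 9, 3, 2, 1 and 1 were called higher in CF, beside 4.6%, 2.73%, 5.64% and 4.07% of genes, and 1, 1, 2 and 2 lower, beside 4.96%, 5.14%, 3.64% and 4.21%. The median log2 differences of the list were 0.11, 0.12, 0.25 and 0.20. Against the SOX2-low WT set 3 of 18, 5 of 19, 4 of 20 and 1 of 20 were called higher, beside 2.66%, 4.74%, 7.2% and 3.31% of genes. In that comparison 0 were called lower at each day, beside 2.14%, 3.7%, 2.86% and 1.98% of genes. ST6GALNAC1, the sialyltransferase that makes the sialyl-Tn antigen, was higher in CF at each day, with 1.43, 6.40, 7.77 and 17.1 CPM in WT and 15.9, 38.3, 42.1 and 38.8 CPM in CF. Its log2 differences were 2.80, 2.41, 2.30 and 1.13, and against the SOX2-low WT set they were 3.02, 3.74, 3.26 and 2.00. GALNT5, which adds the initial GalNAc, was called lower in CF at each day, with -1.02 to -1.90, but was 0.66 to 1.73 against the SOX2-low set. C1GALT1, which extends GalNAc to core 1, was called lower at day 9 alone, at -1.11, and was -0.14 against the SOX2-low set.

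The direction of secretory and goblet cell genes depended on the day and on the WT cells compared. Of 18 such genes 16 were in the matrices, and of the 10, 13, 15 and 15 past the filter, 4, 2, 1 and 0 were called higher in CF than in all WT cells at day 2, 5, 7 and 9 and 1, 4, 4 and 6 lower, beside the same shares of genes. The median log2 differences were 0.84, -0.20, -0.26 and -0.67. Against the SOX2-low WT set 0 of 9, 3 of 11, 3 of 14 and 1 of 15 were called higher and 0, 0, 1 and 7 lower, beside 2.66%, 4.74%, 7.2% and 3.31% of genes higher and 2.14%, 3.7%, 2.86% and 1.98% lower. SPDEF, the transcription factor of goblet cell differentiation, was 4.57, 17.1 and 15.6 CPM in WT and 0.254, 3.57 and 3.46 CPM in CF at day 2, 7 and 9. It was called lower in CF at each of the 4 days, with log2 differences of -2.15, -1.17, -1.99 and -1.90. CLCA1, a secreted goblet cell protein, was 23.2 CPM in WT and 1.44 CPM in CF at day 9, and TFF3, the trefoil peptide secreted with mucins, was 372 and 78.8 CPM. PIGR, the receptor that carries IgA across epithelia, was 36.6 and 2.84 CPM at day 9. The genes of the list called higher in CF were named after their values were seen. They were FOXA2, AGR2 and TFF2 at day 2 (log2 differences of 1.50, 1.01 and 1.13), CREB3L1 at day 2 and 5 (1.81 and 1.86) and the trefoil peptide TFF1 at day 5 and 7 (1.73 and 2.50). SPDEF against the SOX2-low set was -0.30 at day 2, below the filter, was called higher at day 5 with 1.12 and was -0.56 at day 7, not called. At day 9 SPDEF, CLCA1 and TFF3 were still lower in CF than in that set, with log2 differences of -1.85, -1.29 and -2.39, and PIGR was at 0.13.

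Among 14 genes listed as partners of membrane mucins, 12 were in the matrices, and 1, 1, 0 and 1 of them were called higher in CF at day 2, 5, 7 and 9 and none lower, which is near the share of all genes (4.6%, 2.73%, 5.64% and 4.07% higher), with medians between -0.02 and 0.48. EGFR, the receptor that MUC1 can meet at the membrane, was the 1 called at day 9, with 185 CPM in WT and 402 CPM in CF, and its log2 difference was 0.54 against the SOX2-low set. Of 14 other mucins 10 were in the matrices and at most 3 passed the filter at a day. MUC21, a membrane mucin of stratified epithelia, was the 1 of them called, at day 2, with 0.463 CPM in WT and 2.54 CPM in CF. That is 1 of 3 tested at that day, beside 4.6% of genes. Against the SOX2-low set 0 of 3 were called higher at day 2, beside 2.66% of genes. From day 2 to day 9 in WT, 10 of 15 goblet cell genes, 7 of 20 O-glycan genes and 3 of 12 partners rose and none fell, beside 9.54% and 6.29% of genes. In CF 5 of 12, 3 of 20 and 1 of 12 rose, while 0, 1 and 0 fell, beside 7.69% and 3.27%.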

How the data were processed

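The authors aligned reads and counted UMIs with Cell Ranger 5.0.1 on ASM1176430v1.1, and the deposited counts are whole UMIs per gene and barcode. The cells used are those the authors retained in Seurat after their filters and doublet removal (32945 of 44243 barcodes), so no doublet caller was run. Their clusters and class names were used, and a class was compared on 58 of 71 clusters. Left out were clusters with more markers of another class than of their own among the leading genes, and clusters with none of their own there and a median depth below their library's divided by 3. The percent of mitochondrial UMIs per cell that the authors deposited is given as a median per library, and their normalized values and lineage scores were not used.

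UMIs were summed per library, cluster or class and divided by the total (CPM, Python 3.11.15). Differences are log2(CPM + 1), among genes with a mean of at least 1 CPM. Intervals are 95% and cover counting error only: exact Poisson, Clopper-Pearson for shares, conditional binomial for ratios. Intervals of UMI counts treat UMIs as independent, so they are too narrow where many UMIs came from 1 cell. A count of 0 was given a floor of 3 counts per library. With 1 library per genotype and day there was no test. Scripts were tested on simulated data. Alternatives were TMM (edgeR 4.0.16) and DESeq2 1.42.0 size factors, pseudocounts, filters, cells and clusters. Whole-gene scaling by TMM moved the CF minus WT log2 differences by -0.21 at day 7 and -0.13 at day 9.

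The members, lists and the SOX2 limit of 10 CPM were chosen with earlier results of these data known. Named are all members, of each list up to 4 genes called the same way at all 4 days and up to 3 at day 9, and the 5 genes most like MUC5AC and MUC16 over clusters. SOX2 sets are sets of clusters and not groups of the study. No sequence is printed, and MUC20 was not analysed here.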

Additional observations from a re-analysis of the deposited data

Results flagged for a closer look

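The change of MUC1 from day 2 to day 9 had opposite signs in the genotypes, with a log2 change of 1.51 in WT and -1.03 in CF. The same was seen for MUC4, with 2.22 in WT and -1.99 in CF. The fall of MUC1 in CF was not called without the 4 CF clusters of fibroblast markers. In the SOX2-low WT clusters MUC1 went from 367 CPM at day 2 to 702 CPM at day 9, which is under 2-fold. Most of these UMIs were in WT cluster 33 at day 2 and in WT cluster 17 at day 9. The CF minus WT difference of MUC5AC changed sign over the days, with 4.68, 2.46 and 1.02 at day 2, 5 and 7 and -1.44 at day 9. The difference of the gel-forming sum did likewise, with 4.54 and 1.74 at day 2 and 5 and -1.76 at day 9. With 1 library per genotype and day, none of these differences was tested.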

How the results depend on the processing

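Of the 28 called values, 27 were still called the same way with TMM, with DESeq2 size factors and with all barcodes, 28 with cells of at least 3000 UMIs, without the filter and with a pseudocount of 0.1, 24 without the CF clusters of fibroblast markers (an alternative chosen after seeing the data), 26 with kept clusters alone and with the mean over cells, and 23 with a pseudocount of 5. With WT restricted to SOX2-low clusters, 12 of 23 were, and 7 reversed: MUC13 at day 2, 5, 7 and 9 (1.55, 1.98, 1.56 and 1.48), MUC5B at day 7 (0.42) and MUC4 at day 7 and 9 (1.91 and 0.40). That setting gave 4 higher and 0 lower at day 2, 7 and 0 at day 5, 4 and 0 at day 7, and 2 lower at day 9. Elsewhere, kept clusters gave 2 higher at day 2, 1 at day 5 and 1 at day 7. With the pseudocount at 5, counts of higher members were 1, 0 and 0 at day 5, 7 and 9, MUC17 losing its calls and MUC5AC that of day 7. All barcodes and the mean over cells gave 2 lower at day 5, and these, TMM and DESeq2 gave 1 higher at day 7. The mean over cells gave 1 lower over time in CF. Without the clusters of fibroblast markers 3 were lower at day 9 and 1 over time in CF. The gel-forming share in WT was, with all barcodes, 2.89%, 6.91% and 9.97% at day 5, 7 and 9, with SOX2-low clusters 0%, 1.83%, 3.89% and 16.9% at day 2, 5, 7 and 9, with kept clusters 3.31%, 6.19% and 9.43% at day 5, 7 and 9, and with the mean over cells 0.113%, 2.77% and 5.42% at day 2, 5 and 7. In CF it was 8.53% with all barcodes at day 7, 3.26%, 8.37%, 7.06% and 8.99% with kept clusters at day 2, 5, 7 and 9, and 2.96%, 10.3% and 7.81% with the mean over cells at day 2, 5 and 9. The causes were not tested. No paired analysis was possible because each genotype was 1 pool of donors, so libraries matched by day are not replicate pairs. Counts were lowest for MUC17 in WT, with 0, 9 and 30 UMIs at day 2, 5 and 7, and for MUC5AC and MUC5B in WT at day 2, with 30 and 19. The WT library of day 2 had the most UMIs of all libraries (114585136).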
